A study of Mus musculus with 20 samples.

Results

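Genes of DNA replication and S phase were followed in fetal mouse lung, with and without the glucocorticoid receptor (GR, gene Nr3c1) in mesenchymal cells. The set is a list of 42 genes taken by symbol, and it was chosen with earlier results of these data known. For each gene the brightest probe set that names it alone was read, by its mean over the 20 arrays. Of the 42 genes, 41 had such a probe set (Chaf1a had none) and 40 were tested, out of 12393 genes on the array and 8068 tested. Tyms, which encodes thymidylate synthase, was left out of the tests because its probe set, with a mean log2 value of 3.23, was above 4 in only 2 arrays. A log2 value below 4 is called dim here, and a gene was tested when it lay above 4 in at least 5 of the 20 arrays.

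Each array measured a left lung lobe of C57Bl6 mice and is taken here as 1 animal, with 5 animals in each of 4 groups. The groups were GR ablation lungs at E18.5, control lungs at E18.5, GR ablation lungs at E16.5 and control lungs at E16.5, where the number after E is the day of embryonic development. The GR ablation animals (GRCol1-Cre) carried a Cre recombinase expressed from a bacterial artificial chromosome (BAC) with the collagen type (I)-alpha-2 locus, which removes GR in mesenchymal cells. The controls carried the GR flox allele and kept GR in those cells, so epithelium, endothelium and blood cells of both genotypes were not the target of the ablation. Values are GCRMA log2 intensities of whole lobes. They are listed in the order of animals 1 to 5. The labels do not say whether these numbers match animals across groups.

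Before a cell copies its DNA, the origin recognition complex, Cdc6 and Cdt1 load the ring-shaped MCM helicase onto origins, and cyclin E with its kinase and Cdc45, Mcm10 and the GINS complex then switch the helicase on. Primase and polymerase alpha start each strand, polymerases delta and epsilon extend it on the Pcna clamp, and Fen1 and Lig1 finish the lagging strand. Most of these genes are transcribed in late G1 and S phase under E2F factors, and their messenger RNA is widely used as a sign of dividing cells. In the fetal lung, cell division slows towards birth while the mesenchyme thins and maternal and fetal glucocorticoids rise.

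The replication genes were at their highest at E16.5 in both genotypes and lower at E18.5, and at E18.5 they were higher in GR ablation lungs than in control lungs. At E18.5, 38 of the 40 genes tested were higher in GR ablation and 0 were lower, where 18.6% of all genes tested were higher and 15.9% lower. All 40 differences were above 0, with a median of 0.86 on the log2 scale (1.81-fold) against 0.03 over all genes, and they ran from 0.20 for E2f1 to 1.66 for Chaf1b. In 34 genes the difference passed the test and was at least 1.5-fold (13.1% of all genes, in either direction). In 14 of them it was at least 2-fold, and the share of all genes at that size was not taken. At E16.5, 0 of the 40 differed between the genotypes by limma's test, where 0.248% of all genes did, and 0 had an unadjusted p under 0.05, where 4.41% of all genes had one. The E16.5 differences had a median of 0.02 and ran from -0.11 for Eme1 to 0.31 for Orc1. The 95% confidence intervals of the E16.5 differences reached -0.91 (Eme1) and 0.97 (Exo1) at their widest. Tests here and below are limma's, with Benjamini-Hochberg adjustment over the 8068 genes, and a gene is called at an adjusted p under 0.05. In whole-lobe RNA, fewer cells in S phase and less of these messenger RNAs per cell cannot be told apart.

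**Figure D1:**
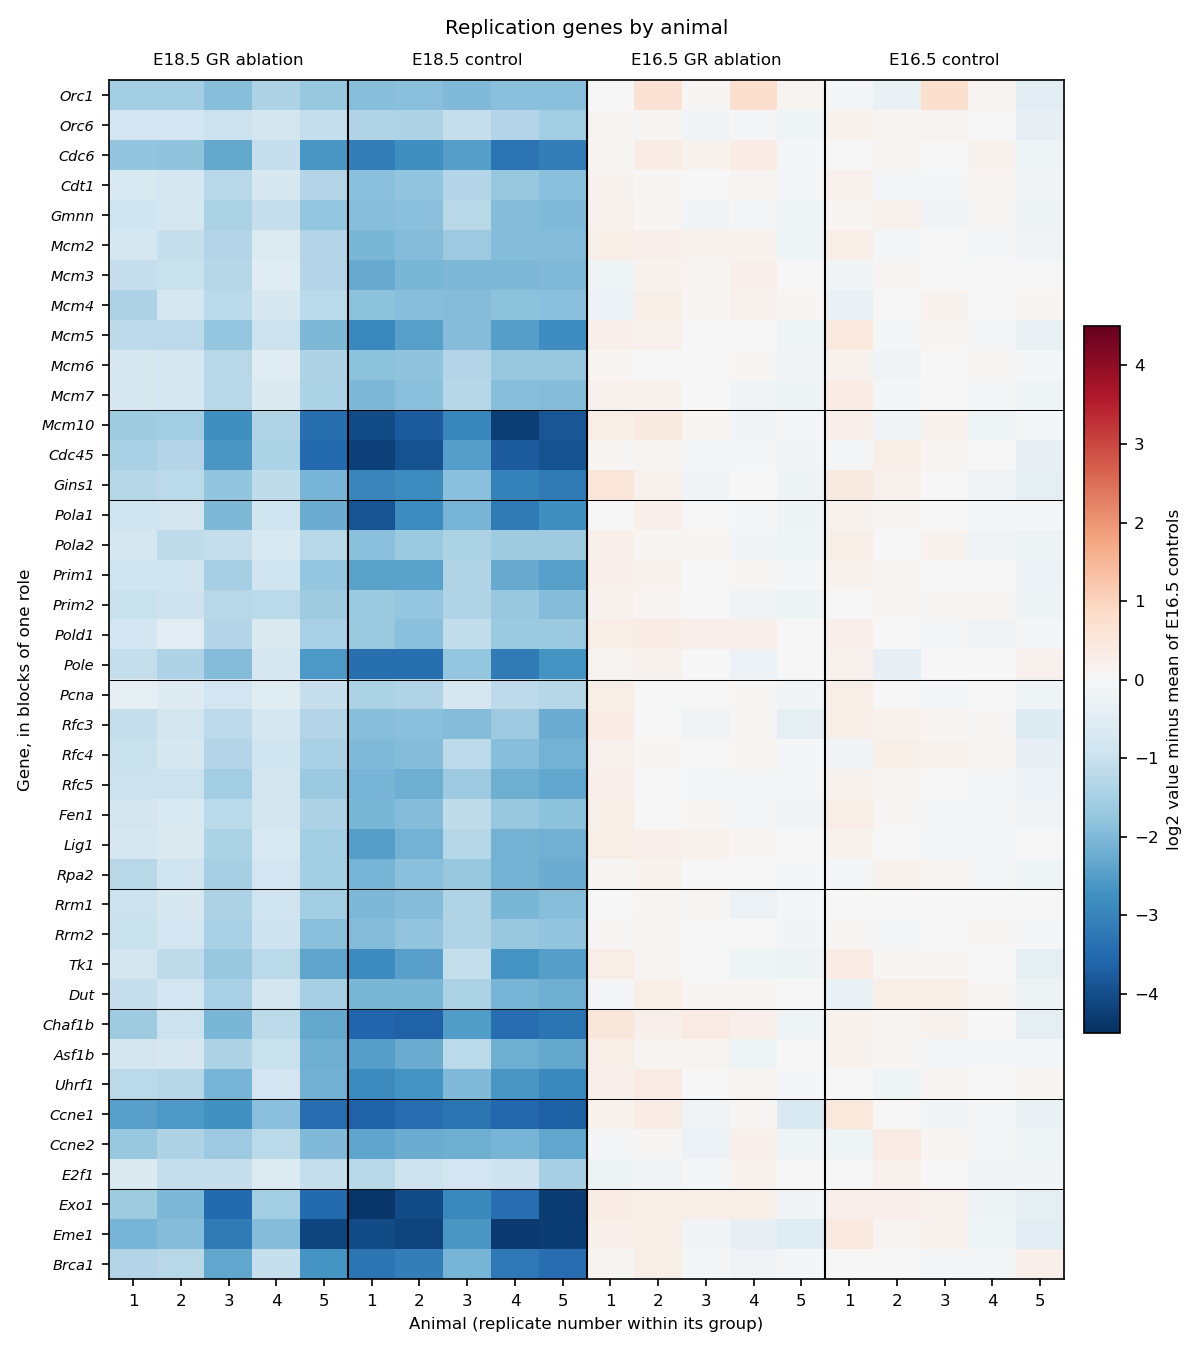
Log2 value of each of the 40 tested replication genes (rows, in blocks of one role) in each of the 20 animals (columns), minus the mean of the 5 E16.5 control lungs of that gene. Blue is lower and red is higher. The E18.5 columns are blue throughout, palest in GR ablation animals 1, 2 and 4, and E18.5 control animal 3 is paler than the other 4 controls in most rows.

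**Figure D2:**
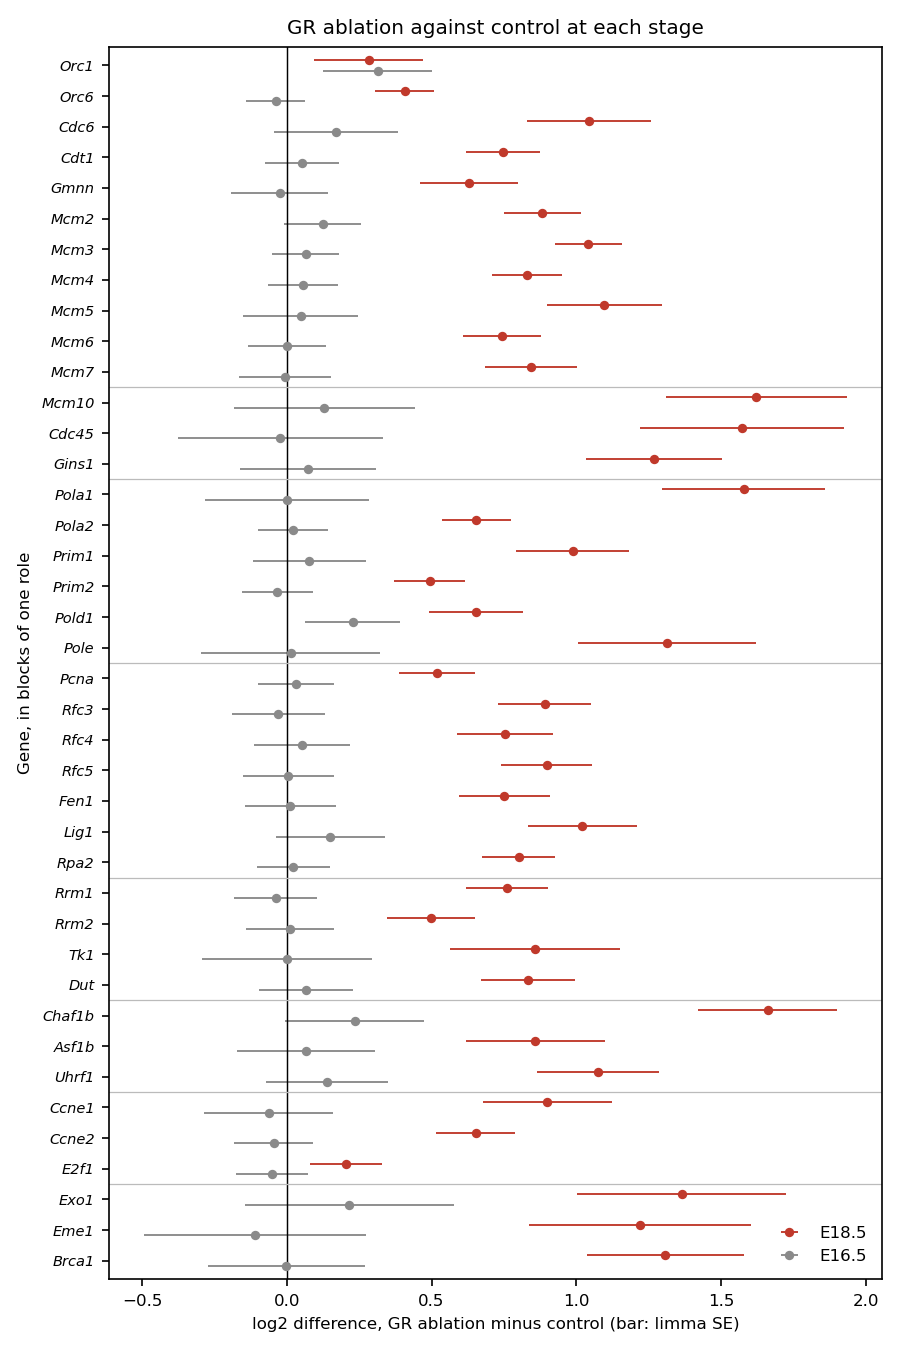
Log2 difference, GR ablation minus control, of the 40 tested replication genes at E18.5 (red) and E16.5 (grey), with limma standard errors (SE). The E18.5 points lie between 0.20 and 1.66 and the E16.5 points between -0.11 and 0.31.

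The ablation was checked first at its target. Nr3c1 read 7.80, 7.56, 8.05, 7.67 and 7.89 in GR ablation lungs, against 9.57, 9.47, 9.02, 9.49 and 9.53 in control lungs at E18.5, and 6.31, 7.22, 7.50, 7.10 and 7.19 in GR ablation lungs, against 8.69, 8.58, 8.74, 8.76 and 9.15 in control lungs at E16.5. All GR ablation animals lay below all controls of their stage. The log2 difference was -1.62 at E18.5 and -1.72 at E16.5 (SE 0.17 each, adjusted p = 1.62e-06 and 1.66e-05), so 32.5% and 30.4% of the control signal was left in lobes whose other cells keep the gene.

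The lung marker Sftpc, the surfactant protein C gene, read 15.10 to 15.22 in GR ablation and 15.15 to 15.22 in control lungs at E18.5, while the probe set of the lung epithelial factor Nkx2-1 was dim in all 20 arrays. Some marker lists moved with the genotype at E18.5. Endothelial markers (5 of 5 above 4 in all E18.5 arrays) had a summed level of 12.11 to 12.44 in GR ablation and 12.74 to 12.95 in control lungs. The summed level of the mesothelial markers (2 of 3 above 4 in all E18.5 arrays) was 9.76 to 10.61 in GR ablation and 11.35 to 11.55 in control lungs, and that of the erythroid markers (2 of 6) 10.34 to 10.88 and 11.13 to 12.91. Macrophage and monocyte markers (5 of 6) summed to 11.30 to 12.97 in GR ablation and 12.33 to 13.57 in control lungs, and megakaryocyte markers (2 of 4) to 8.48 to 9.16 and 9.13 to 9.33, with overlap in both lists. The mesenchymal markers (5 of 5) summed to 15.28 to 15.51 in GR ablation and 15.51 to 15.79 in control lungs. Lymphoid and thymic markers were dim in all arrays (0 of 8 above 4). The part of these cells in the differences of the replication genes was not tested. By Xist and Y-linked genes, 2 of 5 GR ablation and 3 of 5 control embryos were female at E18.5, and 5 of 5 and 1 of 5 at E16.5, so sex and genotype nearly coincide at E16.5.

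What the members share beyond their function was looked for at their transcription starts. RefSeq windows of 300 bases (250 before the start, 50 from it on, build GRCm38.p6) were at hand for 35 of the 42 genes, 40 windows in all. The genes lie on 15 chromosomes, with at most 5 on one. The E2F letters searched were TTTCCCGC, TTTGGCGC, TTTCGCGC and TTTGCCGC on both strands. They stood in 12 of the 40 windows, in 12 genes, against 2.26% of 32851 windows of all genes. The 12 genes were Orc1, Cdc6, Cdt1, Mcm3, Mcm5, Mcm6, Mcm7, Pola1, Pold1, Rfc3, Lig1 and Uhrf1. The letters CCAAT, those of the factor NF-Y, stood in 55.0% of the member windows and 37.41% of all windows. The CHR letters TTTGAA, known from promoters of mitosis genes, stood in 12.5% and 17.89%. The palindromic letters of a GR binding element, GNACA and TGTNC with 3 bases between them, stood in 0 of the 40 windows and in 0.47% of all windows. A match is a description of the letters in these windows, and the shares were not tested. The stretches below show 60 bases around E2F letters in the 8 genes that have a match ending no more than 20 bases past the start, and of such matches the one nearest the start was taken. Mcm7 has a second match, nearer its start but further past it, which is not shown. They run 5′ to 3′ on the strand of the gene, and capitals mark every E2F match in the stretch.
Cdc6 (chr11:98907987-98908046, plus strand): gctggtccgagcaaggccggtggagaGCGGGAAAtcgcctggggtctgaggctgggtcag
Mcm5 (chr8:75109334-75109393, plus strand): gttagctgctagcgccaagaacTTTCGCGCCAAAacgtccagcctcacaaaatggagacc
Mcm6 (chr1:128359719-128359778, minus strand): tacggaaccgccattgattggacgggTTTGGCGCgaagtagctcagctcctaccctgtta
Mcm7 (chr5:138172015-138172074, minus strand): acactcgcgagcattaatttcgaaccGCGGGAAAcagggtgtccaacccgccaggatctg
Orc1 (chr4:108579401-108579460, plus strand): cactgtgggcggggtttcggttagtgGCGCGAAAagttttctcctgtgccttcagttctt
Pola1 (chrX:93632260-93632319, minus strand): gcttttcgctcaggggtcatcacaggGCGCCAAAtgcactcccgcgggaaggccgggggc
Rfc3 (chr5:151651189-151651248, minus strand): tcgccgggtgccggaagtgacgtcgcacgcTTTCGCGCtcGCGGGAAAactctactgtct
Uhrf1 (chr17:56304102-56304161, plus strand): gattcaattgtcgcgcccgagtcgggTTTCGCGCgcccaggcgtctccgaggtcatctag
The starts are those of RefSeq's promoter windows, and in Cdc6, Mcm7, Orc1, Pola1 and Uhrf1 the stretch lies inside the annotated span of the gene, which opens further upstream. Mcm5 carries 2 overlapping matches in 1 run of capitals, and Rfc3 has 2 matches on opposite strands astride its start. Orc1, which was not called at E18.5, has the letters too, and Chaf1b, which had the widest difference, has none in its window.

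**Figure D3:**
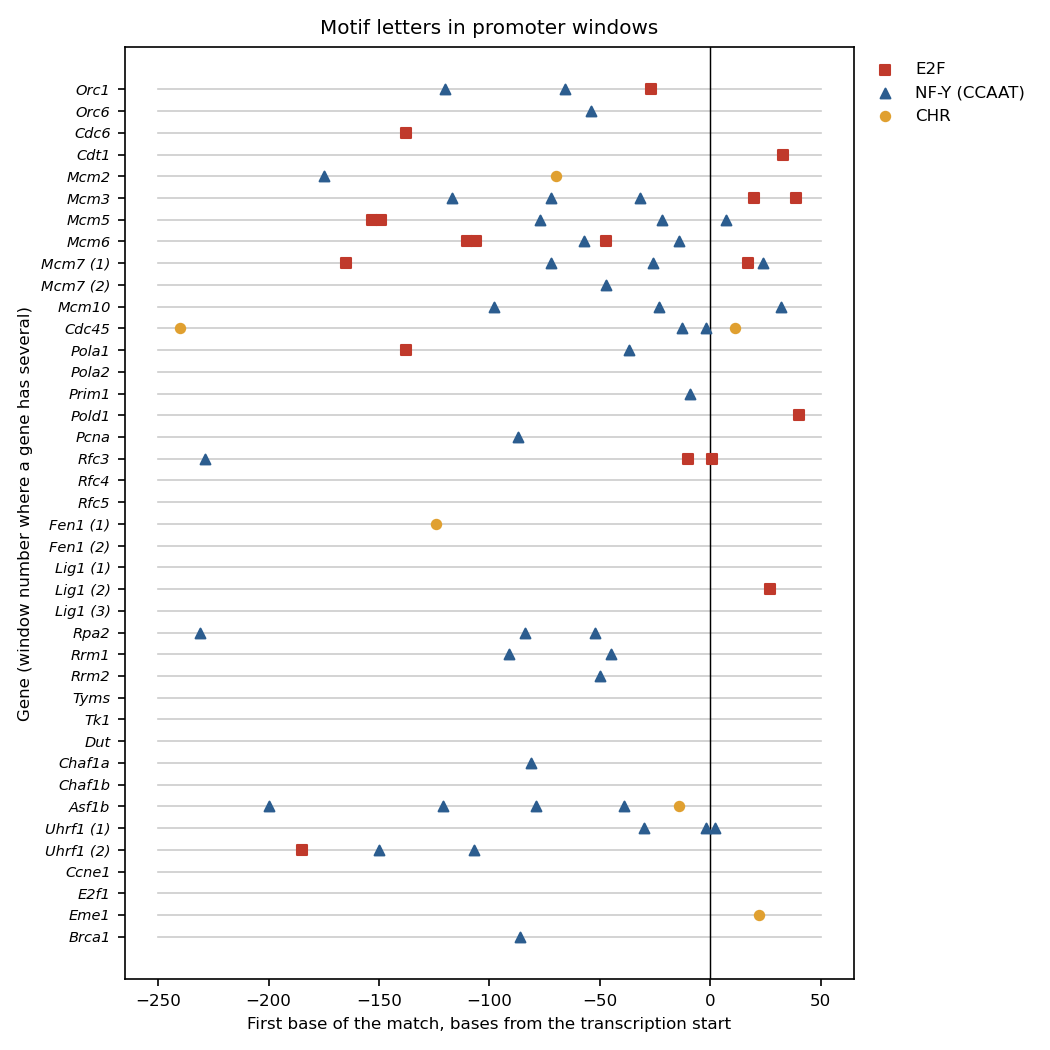
Position of the E2F letters (red squares), CCAAT (blue triangles) and CHR letters (yellow circles) in the 40 promoter windows of 35 replication genes, in bases from the transcription start (vertical line). The 18 E2F matches fall in 12 windows, and 10 of the 18 matches start within 100 bases of the start.

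Origin licensing genes load the helicase onto DNA. At E18.5, 10 of the 11 were higher in GR ablation lungs (median 0.83), namely all but Orc1. Mcm5 (chr8:75109468-75128439, RefSeq gene span in GRCm38.p6 as for the genes that follow), a subunit of the MCM ring, read 9.16, 9.14, 8.58, 9.36 and 8.30 in GR ablation lungs, against 7.43, 7.88, 8.37, 7.84 and 7.54 in control lungs at E18.5. All GR ablation animals but number 5 lay above all controls. The difference was 1.10 (SE 0.20, adjusted p = 0.000425). At E16.5 Mcm5 read 10.55, 10.52, 10.35, 10.34 and 10.14 in GR ablation lungs, against 10.75, 10.23, 10.43, 10.25 and 9.99 in control lungs, and the groups overlapped. Cdc6 (chr11:98907709-98923942), the ATPase that brings the ring to the origin, read 7.72, 7.68, 7.19, 8.46 and 6.89 in GR ablation lungs, against 6.39, 6.73, 7.02, 6.18 and 6.40 in control lungs at E18.5. Animal 5 was again the lowest of the GR ablation group and fell below control 3. Its difference of 1.04 (SE 0.21, adjusted p = 0.00113) stood beside 0.17 (SE 0.21, adjusted p = 1.00) at E16.5, where it read 9.55, 9.85, 9.67, 9.83 and 9.45 in GR ablation lungs, against 9.48, 9.57, 9.50, 9.67 and 9.29 in control lungs. Mcm2, Mcm3 and Mcm4, other subunits of the ring, had no overlap between the genotypes at E18.5, with differences of 0.88, 1.04 and 0.83. Mcm6 and Mcm7 differed by 0.74 and 0.84. Cdt1, the partner of Cdc6 in loading, differed by 0.75, and Gmnn, which encodes geminin, the inhibitor of Cdt1, by 0.63.

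Orc1, the largest subunit of the origin recognition complex, was the exception in this group. Its probe set (gene at chr4:108575705-108616030) read 2.92, 2.94, 2.53, 3.06 and 2.74 in GR ablation lungs, against 2.55, 2.59, 2.47, 2.59 and 2.57 in control lungs at E18.5. All 10 E18.5 values were therefore dim, with control 3 the lowest of all. The difference of 0.28 (SE 0.19, adjusted p = 0.259) was not called. At E16.5 it read 4.46, 5.12, 4.51, 5.23 and 4.58 in GR ablation lungs, against 4.37, 4.17, 5.20, 4.59 and 3.99 in control lungs, with a difference of 0.31 (SE 0.19, adjusted p = 1.00). The Orc6 probe set was bright, and Orc6 was higher at E18.5 by 0.41 (SE 0.10, adjusted p = 0.00487).

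All 3 helicase activation genes were higher at E18.5, with the largest median difference of the role groups (1.57). Mcm10 (chr2:4990724-5012791), which helps turn the loaded ring into an active helicase, read 6.48, 6.54, 5.31, 6.75 and 4.71 in GR ablation lungs, against 4.07, 4.35, 5.15, 3.85 and 4.25 in control lungs at E18.5. GR ablation animals 1, 2 and 4 were far above every control, while animal 5 lay below control 3. The difference was 1.62 (SE 0.31, adjusted p = 0.00074), a 3.08-fold higher signal, in which control 4 was dim. At E16.5 the values were 8.39, 8.51, 8.19, 7.97 and 8.03 in GR ablation lungs, against 8.33, 7.98, 8.24, 7.90 and 8.0 in control lungs, with a difference of 0.13 (SE 0.31, adjusted p = 1.00). Cdc45 (chr16:18780447-18811972), a part of the active helicase, read 5.81, 5.96, 4.65, 5.85 and 3.77 in GR ablation lungs, against 3.09, 3.37, 4.79, 3.54 and 3.36 in control lungs. Controls 1, 2, 4 and 5 were dim for Cdc45, as was GR ablation animal 5, and control 3 lay above GR ablation animals 3 and 5. Its E18.5 difference was 1.57 (SE 0.35, adjusted p = 0.00228). At E16.5 Cdc45 read 7.33, 7.42, 7.17, 7.20 and 7.16 in GR ablation lungs, against 7.24, 7.57, 7.40, 7.24 and 6.92 in control lungs, all of them bright. Gins1, a GINS subunit, was higher at E18.5 by 1.27 (SE 0.24, adjusted p = 0.000543).

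Polymerases and primase were higher at E18.5 in 6 of 6 genes (median 0.82). Pola1 on the X chromosome (chrX:93304766-93632387), the catalytic subunit of polymerase alpha, read 7.97, 8.04, 6.87, 8.0 and 6.67 in GR ablation lungs, against 5.0, 6.05, 6.78, 5.71 and 6.12 in control lungs at E18.5. GR ablation animal 5 fell between control 3 and the other 4 controls. The difference was 1.58 (SE 0.28, adjusted p = 0.000395). At E16.5 the difference was 0.00, with 8.90, 9.13, 8.91, 8.81 and 8.67 in GR ablation lungs, against 9.03, 8.93, 8.87, 8.78 and 8.81 in control lungs. Pole (chr5:110286319-110337468), the catalytic subunit of polymerase epsilon, read 7.25, 6.93, 6.36, 7.56 and 5.74 in GR ablation lungs, against 4.93, 4.95, 6.60, 5.14 and 5.65 in control lungs. Control 3 lay above animals 3 and 5 of the GR ablation group, and the difference was 1.31 (SE 0.31, adjusted p = 0.00324). Its E16.5 values were 8.47, 8.49, 8.34, 8.07 and 8.35 in GR ablation lungs, against 8.51, 7.94, 8.33, 8.36 and 8.51 in control lungs. Prim1 and Prim2, the primase subunits, differed by 0.99 and 0.49 at E18.5. Pola2, the second subunit of polymerase alpha, differed by 0.66 with no overlap, and Pold1, the catalytic subunit of polymerase delta, by 0.65.

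Clamp, clamp loader and lagging strand genes were higher at E18.5 in 7 of 7 cases (median 0.80). Lig1 (chr7:13277175-13311426), the ligase that joins Okazaki fragments, read 9.39, 9.48, 8.74, 9.46 and 8.58 in GR ablation lungs, against 7.67, 8.01, 8.85, 8.03 and 7.98 in control lungs at E18.5. Control 3 overlapped with GR ablation animals 3 and 5. The difference was 1.02 (SE 0.19, adjusted p = 0.00052). At E16.5 Lig1 read 10.41, 10.39, 10.32, 10.23 and 10.15 in GR ablation lungs, against 10.29, 10.18, 10.07, 10.08 and 10.12 in control lungs, a difference of 0.15 (SE 0.19, adjusted p = 1.00). Rfc5 (chr5:117379145-117389023), a clamp loader subunit, read 8.96, 8.95, 8.37, 9.10 and 8.26 in GR ablation lungs, against 7.82, 7.71, 8.30, 7.72 and 7.58 in control lungs, where only GR ablation animal 5 fell below the highest control. It was higher by 0.90 (SE 0.16, adjusted p = 0.000325), and at E16.5 it read 10.16, 9.93, 9.85, 9.86 and 9.83 in GR ablation lungs, against 10.09, 10.04, 9.95, 9.87 and 9.65 in control lungs. Of the other loader subunits, Rfc3 differed by 0.89 with no overlap and Rfc4 by 0.75. Pcna, the sliding clamp, had one of the smaller differences, 0.52 (SE 0.13, adjusted p = 0.00534). Fen1, the flap endonuclease, differed by 0.75, and Rpa2, a subunit of the single-strand binding complex, by 0.80 with no overlap.

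Genes of deoxynucleotide supply were higher at E18.5 in 4 of the 4 tested (median 0.80). Tk1 (chr11:117815519-117826087), thymidine kinase, read 8.83, 8.53, 7.97, 8.45 and 7.30 in GR ablation lungs, against 6.79, 7.22, 8.60, 7.01 and 7.19 in control lungs at E18.5. Control 3 lay above every GR ablation animal but number 1. The difference of 0.86 (SE 0.29, adjusted p = 0.0302) was the weakest call of the 38, and it was lost when any one of E18.5 controls 1, 2, 4 and 5 or GR ablation animals 1, 2 and 4 was left out (adjusted p = 0.0616 to 0.0882). At E16.5 Tk1 read 9.96, 9.78, 9.67, 9.49 and 9.45 in GR ablation lungs, against 10.03, 9.73, 9.71, 9.67 and 9.22 in control lungs. Dut (chr2:125247248-125259049), the dUTPase that keeps uracil out of DNA, read 9.95, 10.13, 9.52, 10.15 and 9.50 in GR ablation lungs, against 8.94, 8.92, 9.55, 8.89 and 8.80 in control lungs. Animals 3 and 5 of the GR ablation group lay just below control 3. Dut was higher by 0.83 (SE 0.16, adjusted p = 0.000811), and its E16.5 values were 10.91, 11.28, 11.03, 11.05 and 10.97 in GR ablation lungs, against 10.64, 11.25, 11.26, 11.03 and 10.74 in control lungs. Rrm1 and Rrm2, the subunits of ribonucleotide reductase, differed by 0.76 and 0.50, and the call of Rrm2 was lost without GR ablation animal 2 or 4 (adjusted p = 0.0551 and 0.0533).

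Replication-coupled chromatin genes were higher at E18.5 in 3 of 3 cases (median 1.08). Chaf1b (chr16:93883900-93906115), a subunit of the chromatin assembly factor that places histones on new DNA, read 6.64, 7.29, 6.21, 7.07 and 5.95 in GR ablation lungs, against 4.68, 4.62, 5.74, 4.83 and 4.98 in control lungs at E18.5. All 5 GR ablation animals lay above all 5 controls, and control 3 was the highest control. The difference of 1.66 (SE 0.24, adjusted p = 5.33e-05) was the widest of the 40, at 3.16-fold. At E16.5 Chaf1b read 8.78, 8.49, 8.62, 8.48 and 8.06 in GR ablation lungs, against 8.42, 8.38, 8.40, 8.27 and 7.80 in control lungs, where 4 of the 5 GR ablation animals exceeded every control and the difference of 0.23 (SE 0.24, adjusted p = 1.00) was not called. Uhrf1 (chr17:56303337-56323486), which recruits DNA methyltransferase to new DNA, read 9.43, 9.35, 8.56, 9.79 and 8.47 in GR ablation lungs, against 7.79, 7.97, 8.67, 8.04 and 7.75 in control lungs. GR ablation animals 3 and 5 lay below control 3 and above the rest. Uhrf1 was higher by 1.08 (SE 0.21, adjusted p = 0.00081), and at E16.5 it read 10.88, 11.01, 10.67, 10.77 and 10.61 in GR ablation lungs, against 10.67, 10.46, 10.75, 10.64 and 10.73 in control lungs. Asf1b, a histone chaperone, differed by 0.86 (SE 0.24, adjusted p = 0.00988).

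In the G1/S group, both E cyclins were higher at E18.5 and E2f1 was not called. Ccne1 (chr7:38097984-38107490), cyclin E1, read 5.30, 5.16, 5.05, 5.88 and 4.34 in GR ablation lungs, against 4.13, 4.35, 4.46, 4.21 and 4.09 in control lungs at E18.5. Only GR ablation animal 5 fell within the control range. The difference was 0.90 (SE 0.22, adjusted p = 0.00468), and at E16.5 Ccne1 read 7.91, 8.08, 7.60, 7.81 and 7.06 in GR ablation lungs, against 8.23, 7.74, 7.65, 7.71 and 7.45 in control lungs. Ccne2 (chr4:11190433-11204779), cyclin E2, read 9.04, 9.36, 9.12, 9.54 and 8.78 in GR ablation lungs, against 8.38, 8.53, 8.57, 8.66 and 8.43 in control lungs, with no overlap between the genotypes. It was higher by 0.65 (SE 0.14, adjusted p = 0.00134). At E16.5 Ccne2 read 10.68, 10.82, 10.48, 11.0 and 10.57 in GR ablation lungs, against 10.55, 11.14, 10.86, 10.67 and 10.56 in control lungs. E2f1 (chr2:154559400-154569892), one of the transcription factors that drive these genes, read 6.37, 5.95, 5.99, 6.39 and 5.95 in GR ablation lungs, against 5.77, 6.08, 6.15, 6.09 and 5.53 in control lungs. GR ablation animals 1 and 4 lay above all controls and the other 3 within their range. Its difference of 0.20 (SE 0.12, adjusted p = 0.215) was the smallest of the 40. At E16.5 E2f1 read 6.79, 6.84, 6.98, 7.19 and 7.02 in GR ablation lungs, against 7.05, 7.21, 7.03, 6.91 and 6.89 in control lungs.

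The replication-linked repair genes were all higher at E18.5 (3 of 3, median 1.31). Exo1 (chr1:175880768-175911396), an exonuclease of mismatch repair, read 6.10, 5.70, 4.19, 6.15 and 4.19 in GR ablation lungs, against 3.32, 3.69, 4.80, 4.26 and 3.44 in control lungs at E18.5. GR ablation animals 1, 2 and 4 were well above the controls, and animals 3 and 5 lay within the control range. The difference was 1.36 (SE 0.36, adjusted p = 0.00694), and the E16.5 values were 8.05, 8.01, 8.02, 7.97 and 7.57 in GR ablation lungs, against 7.94, 7.92, 7.91, 7.47 and 7.30 in control lungs. Brca1 (chr11:101488761-101551955), which protects and repairs stalled forks, read 7.17, 7.23, 6.16, 7.43 and 5.84 in GR ablation lungs, against 5.20, 5.38, 6.40, 5.26 and 5.04 in control lungs. Control 3 stood above GR ablation animals 3 and 5 for this gene. Brca1 was higher by 1.31 (SE 0.27, adjusted p = 0.00128) and read 8.54, 8.73, 8.43, 8.31 and 8.38 in GR ablation lungs, against 8.46, 8.47, 8.40, 8.38 and 8.70 in control lungs at E16.5. Eme1, a subunit of a structure-specific endonuclease, was higher by 1.22 (SE 0.38, adjusted p = 0.0193), and its call was lost without any one of GR ablation animals 1, 2 and 4 (adjusted p = 0.0529 to 0.0594).

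Between the stages, every tested replication gene fell in both genotypes. Orc1 counts among them, although it passed the filter only through its E16.5 arrays and so had to be lower at E18.5. In controls, 40 of 40 were lower at E18.5 than at E16.5, where 35.5% of all genes tested were lower, with a median of -2.02 and a range of -3.88 (Eme1) to -1.09 (E2f1). In GR ablation lungs, 40 of 40 were lower at E18.5, where 27.6% of all genes were lower, with a median of -1.21 and a range of -2.66 (Exo1) to -0.72 (Pcna). All 5 E18.5 values lay below all 5 E16.5 values in 40 of 40 genes in each genotype, against 20.3% of all genes in GR ablation lungs and 25.3% in controls. The medians over all genes were 0.00 in GR ablation lungs and -0.01 in controls. The fall was deepest in controls for the repair exonuclease Exo1 (-3.80), for Mcm10 (-3.75), Cdc45 (-3.64) and Ccne1 (-3.51), next to Eme1, and E2f1, Pcna (-1.20) and Orc6 (-1.32) fell least. Eme1, Cdc45 and Exo1 were dim in most E18.5 controls, and Mcm10 in control 4. Their control falls may therefore be understated, and their shares of the control fall given below carry the same limit. In GR ablation lungs Exo1 (-2.66), Ccne1 and Eme1 (-2.55 each) and Mcm10 (-2.26) fell furthest.

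As a share of the control fall on the log2 scale, the fall in GR ablation lungs had a median of 60.2%. With the probe sets read, it ran from 46.5% for Pola1 (-1.37 in GR ablation, -2.95 in controls) to 76.5% for E2f1 in the 39 genes other than Orc1. By these estimates all 39 fell less in GR ablation lungs. The gap between the falls of a gene is the same quantity as the interaction below, which was called for 22 of the 40 genes. The changes of Orc1 (-1.94 in GR ablation, -1.91 in controls) end in dim E18.5 values in both genotypes, so they bound its fall and allow no comparison of the genotypes. By role the median share was 56.8% for helicase activation, 57.5% for the clamp and lagging strand group, 59.3% for licensing, 59.6% for polymerases and primase, 61.9% for deoxynucleotide supply, 62.1% for chromatin, 65.7% for repair and 72.6% for the G1/S genes.

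**Figure D4:**
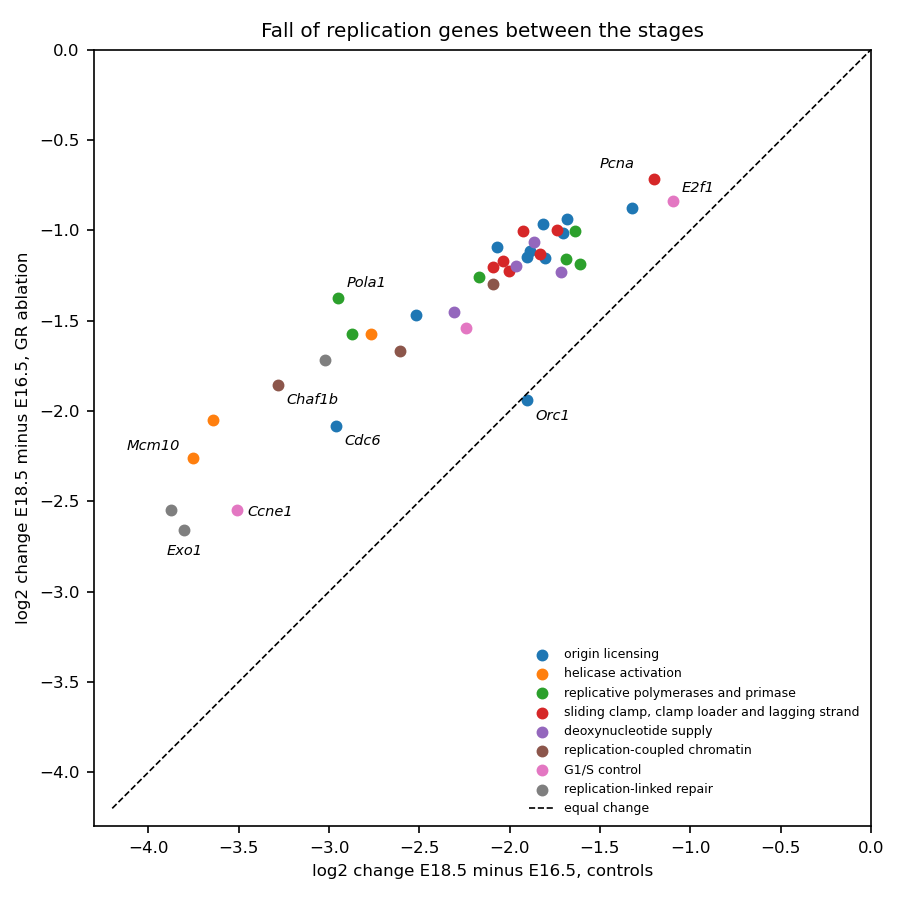
Log2 change of each tested replication gene from E16.5 to E18.5 (E18.5 minus E16.5) in GR ablation lungs (vertical axis) and control lungs (horizontal axis), coloured by role. The dashed line marks an equal change. All genes but Orc1, whose E18.5 values are all dim, lie above it.

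Whether the effect of GR ablation itself differed between the stages was tested as an interaction, the E18.5 difference minus the E16.5 difference. It was above 0 and called for 22 of the 40 genes, where 3.62% of all genes tested were called in that direction, and 0 of the 40 were called below 0, where 4.78% of all genes were. The median was 0.82 against 0.02 over all genes, and 36 of the 40 had an unadjusted p under 0.05, against 24.8% of all genes. Mcm3 had the smallest p, with an interaction of 0.98 (SE 0.16, adjusted p = 0.00123). Pola1 (1.58), Mcm10 (1.49) and Chaf1b (1.43) had the largest called values. Cdc45 (1.60) was larger but not called (adjusted p = 0.0544), and neither were E2f1 (0.26), Pold1 (0.43) and Orc1 (-0.03). This count moves with single arrays. It was 35 without E18.5 control 3 or E18.5 GR ablation 5, where the count over all genes called above 0 went to 751 and 453, against 292 with all arrays. It fell to 10 without E18.5 control 1 or E18.5 GR ablation 4, to 11 without E18.5 control 5, E16.5 GR ablation 5 or E18.5 GR ablation 2, to 12 without E16.5 control 3 or E18.5 GR ablation 1, to 13 without E18.5 control 2, and to 14 without E16.5 control 1 or 2 or E16.5 GR ablation 3 or 4. Over these single removals the count over all genes ran from 160 to 751. With embryo sex as a covariate it was 5 of the 40 and 157 over all genes.

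The animals of each E18.5 group differed among themselves, and did so in nearly all replication genes at once. The mean log2 value over the 40 genes was 8.59, 8.63, 8.03, 8.74 and 7.77 in GR ablation animals 1 to 5 at E18.5, against 7.21, 7.36, 7.98, 7.36 and 7.28 in the controls. GR ablation animals 1, 2 and 4 lay above all controls in 40, 38 and 39 of the 40 genes, animal 3 in 20 and animal 5 in 9. For single animals the shares over all genes were not taken. Animal 5 was the lowest of its group in 37 genes. In the control group animal 3 was the highest in 35 of 40 genes and exceeded the mean of the other 4 controls by a median of 0.65, from -0.10 for Orc1 to 1.56 for Eme1. The groups did not overlap in 8 of 40 genes (Mcm2, Mcm3, Mcm4, Pola2, Rfc3, Rpa2, Chaf1b and Ccne2), where 8.27% of all genes were higher without overlap. Against the other 4 controls alone, all GR ablation animals were higher in 33 of 40. Leaving out a control can only raise such a count, and the share over all genes was not taken for it. At E16.5 the means over the 40 genes lay between 9.57 and 9.88 in GR ablation and between 9.51 and 9.84 in control animals.

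**Figure D5:**
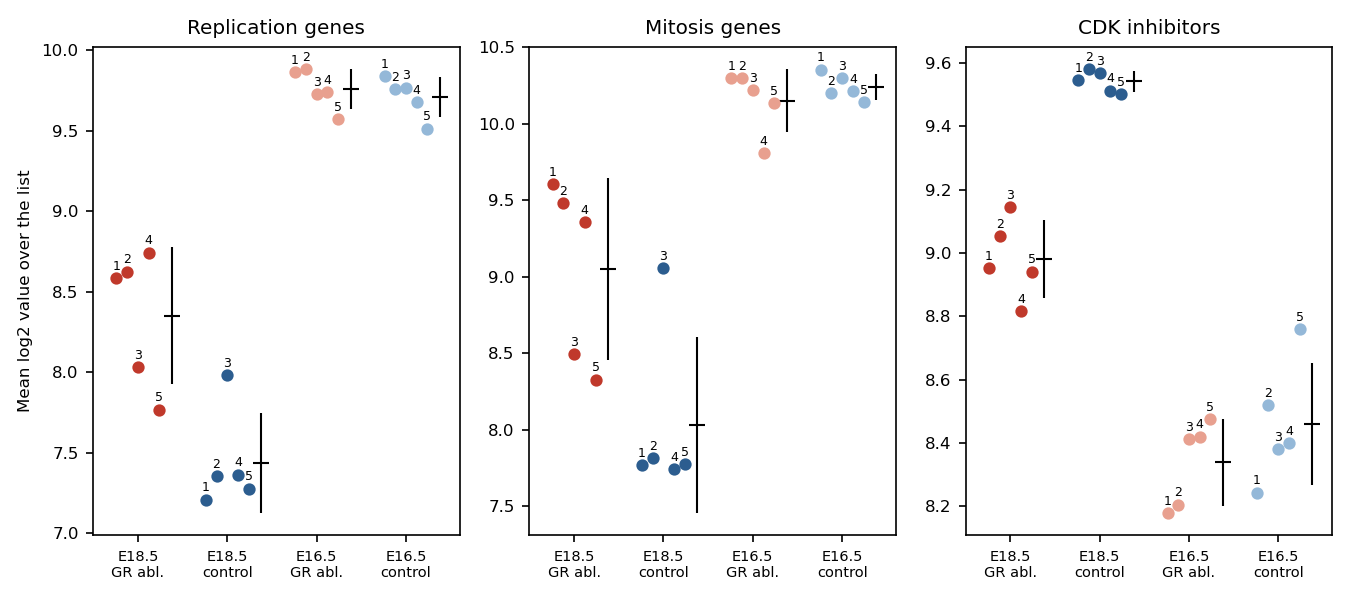
Mean log2 value of each animal over the 40 tested replication genes, 29 mitosis genes and 6 CDK inhibitors, with the animal's number. Black marks show the group mean with its standard deviation (SD, n = 5). The vertical axes do not start at 0. E18.5 control 3 stands above the other controls for replication and mitosis genes and among them for CDK inhibitors.

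E18.5 control 3 stood apart in other genes too. Hbb-y, an embryonic globin gene, read 12.32 in this animal, against 7.95 to 8.95 in the other 4 E18.5 controls and 5.76 to 8.84 in the E18.5 GR ablation animals. At E16.5 Hbb-y read 11.70 to 13.47 in GR ablation and 12.08 to 13.22 in control lungs. Why control 3 stands apart was not tested. The squamous keratin genes Krt4 and Krt13 read 9.38 and 9.49 in control 3 and 9.49 and 10.30 in control 4, and were dim in the other 8 E18.5 arrays, while control 4 did not stand apart in the replication genes. Without control 3 the count of replication genes higher at E18.5 was 38 and the median difference 0.96. Without controls 3 and 4, a choice made after the values were seen, the count was also 38.

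The male and female embryos of E18.5 were also compared apart, a split added after the values were seen. Among females (2 GR ablation, 3 control) the member means were 8.63 and 8.74 in GR ablation and 7.21 to 7.36 in control embryos, and 39 of 40 genes were higher with a median of 1.27. Among males (3 GR ablation, 2 control) they were 7.77 to 8.59 in GR ablation and 7.36 and 7.98 in control embryos. The male median was 0.45, with 39 of 40 differences above 0, but limma called 0 of 40. By limma 8 had an unadjusted p under 0.05, and the share of all genes with one was not taken. Few genes of any kind were called in males, 6 of all 8068 (1 higher), against 3140 (1638 higher) in females. Control 3 and GR ablation animals 3 and 5 are all male. Whether the effect differs between the sexes was not tested.

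Genes next to the 40 in the cell cycle were read from lists of pathway members. Over all genes tested, 18.6% were higher in GR ablation at E18.5 and 15.9% lower. Of 34 other replication genes tested, 25 were higher in GR ablation at E18.5 and 0 were lower (median 0.49). The largest differences were those of Wdhd1 (1.32), Chtf18 (1.05), Ccna2 (0.94) and Pole2 (0.91). Wdhd1 tethers polymerase alpha to the helicase, Chtf18 is part of another clamp loader, Ccna2 is the S-phase cyclin A2, and Pole2 is a polymerase epsilon subunit. Of the other subunits of the origin recognition complex, Orc2 was higher by 0.37, while Orc3 (0.13), Orc4 (0.07) and Orc5 (0.09) were not called. All 29 mitosis genes were higher at E18.5 (median 1.01). At E16.5, 0 of 29 were called, where 0.248% of all genes were. There 0 of 29 had an unadjusted p under 0.05 by limma, where 4.41% of all genes had one. Hmmr (1.39), Cenpe (1.33), Kif23 (1.29) and Kif20a (1.29), genes of the spindle, kinetochore and cell division, had the largest differences. The change between the stages in GR ablation lungs was a median of 49.4% of the control change for the mitosis genes. For the other replication genes it was 62.4%, which includes 1 gene that rose in each genotype. Among these Orc4 had the highest share, 105.5%.

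Among 13 genes of the E2F and RB families and the G1 cyclins, which include E2f1, 5 were higher in GR ablation at E18.5 and 2 were lower. Over all genes tested, 18.6% were higher and 15.9% lower, so the 2 lower genes are near the share over all genes. Higher were E2f8 (0.84), an E2F that represses, Rbl1 (0.81), an RB relative, Cdk4 (0.78), Tfdp1 (0.40), the partner of E2Fs, and Cdk2 (0.35). Ccnd3, cyclin D3, was lower in GR ablation by 0.48 and Rb1, the retinoblastoma gene, by 0.40. Of 6 CDK inhibitors, which hold cells in G1, 3 were lower and 1 was higher, against the same shares over all genes. Cdkn1a, which encodes p21, read 6.42, 6.47, 7.04, 6.36 and 6.54 in GR ablation lungs, against 8.15, 8.13, 7.74, 7.97 and 7.80 in control lungs at E18.5, with no overlap and a difference of -1.39 (SE 0.12, adjusted p = 1.57e-07). Control 3 was the lowest control for Cdkn1a and still above every GR ablation animal. At E16.5 Cdkn1a read 6.21, 6.21, 6.34, 6.70 and 6.53 in GR ablation lungs, against 6.19, 6.24, 6.22, 6.24 and 6.22 in control lungs, and its interaction was -1.57 (adjusted p = 1.36e-05). Cdkn2b, which encodes p15, read 7.23, 7.50, 8.99, 6.97 and 8.30 in GR ablation lungs, against 9.77, 9.90, 8.91, 9.90 and 10.01 in control lungs at E18.5, with GR ablation animal 3 above control 3, and a difference of -1.90 (SE 0.41, adjusted p = 0.00177). Cdkn1c was lower by 0.37 and Cdkn2c, which encodes p18, higher by 0.68.

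Other probe sets of the same genes gave a second reading. The 41 genes on the array had 74 single-gene probe sets, of which 8 did not pass the filter (above 4 in at least 5 arrays), and 26 that passed it, in 20 genes, had not been used. All 26 read higher in GR ablation at E18.5, by 0.33 to 1.72, and all 26 read lower at E18.5 than at E16.5 in controls. The share of the control fall moved with the probe set. E2f1 changed by -0.82 in GR ablation and -1.54 in controls in its unused probe set, against -0.84 and -1.09 in the one read. The unused sets of Prim2 and Exo1 changed more alike in the genotypes (-1.44 and -1.71, -3.16 and -3.82). Those read changed by -1.16 and -1.69 (Prim2) and -2.66 and -3.80 (Exo1). The range and role order of the shares above are those of the probe sets read.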

How the data were processed

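Affymetrix mouse arrays (Mouse430A_2) were read for 20 fetal left lung lobes, 5 per group. The deposited values are log2 intensities that the authors made with GCRMA, per the submitters' processing notes. GCRMA corrects background by probe sequence, scales arrays to each other and gives 1 log2 value per probe set, so low values have no fixed zero and shrink differences of dim genes. Its version and other settings are not given in the sources used here. Probe sets were named through the platform annotation, and coordinates and promoters came from RefSeq (GRCm38.p6). Each array is taken as 1 animal. The labels do not say that each lobe came from a separate animal, or whether any animals were littermates. The number of arrays limits the precision.

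One mean per group was fitted over all 20 arrays with limma 3.58.1 (R 4.3.3), lmFit and eBayes, two-sided, with Benjamini-Hochberg adjustment over the 8068 genes with a log2 value above 4 in at least 5 arrays. The adjusted p-values in the text are limma's from this fit. Where several probe sets named a gene alone, the brightest was read. The step was tested on simulated data. Values in every animal are given for the 2 genes of each role with the largest E18.5 difference and for each gene whose call differs from most of its role. Of the other lists, up to 4 called genes with the largest change are named, and further genes were chosen after their values were seen. The members and lists were chosen with earlier results of these data known. Alternatives took only the groups compared, moved or dropped the floor on dim genes, and changed the normalization, the probe set, the variance model, array weights, replicate numbers, embryo sex or the threshold, and each array was left out in turn. Replicate numbers were checked by the correlation of same-numbered animals' deviations from their group means. Tyms (dim) and Chaf1a (no single-gene probe set) were not tested. Tables and plots came from Python 3.11.15 with matplotlib 3.10.9.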

Additional observations from a re-analysis of the deposited data

Results flagged for a closer look

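In groups of 5 animals, an extreme value was marked when its gap to the nearest animal took more of the group's range than Dixon's critical value for 5 values allows. Of 160 tests (40 genes in 4 groups) 23 were marked, where the nominal rate for separate tests is about 1 in 20. The genes were read in the same 20 animals and move together, so the marks are not separate evidence. The share marked over all genes was not taken. E18.5 control 3 was the highest of its group in 15 of the 23. In licensing and helicase genes it read 9.14 for Gmnn (nearest control 8.48), 8.5 for Mcm2 (8.17), 10.84 for Mcm6 (10.45), 11.39 for Mcm7 (10.78), 4.79 for Cdc45 (3.54) and 7.83 for Gins1 (6.88). In synthesis genes it read 8.92 for Prim1 (8.0), 8.59 for Pold1 (8.03), 9.35 for Rfc4 (8.62), 9.86 for Rrm1 (9.31), 8.6 for Tk1 (7.22) and 9.55 for Dut (8.94). In chromatin and repair genes it read 7.54 for Asf1b (6.54), 4.62 for Eme1 (3.20) and 6.4 for Brca1 (5.38). These 15 genes cover all roles but the G1/S genes, where control 3 was still the highest control for Ccne1 and E2f1. Without this animal the median E18.5 difference over the 40 genes was 0.96, against 0.86 with it.

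The other 8 marks were spread over 4 animals. E16.5 GR ablation animal 5 was lowest for Mcm2 (9.93, nearest 10.27) and Exo1 (7.57, nearest 7.97). E16.5 control 5 was lowest for Prim2 (9.16, nearest 9.42), Rfc3 (9.32, nearest 9.95) and Chaf1b (7.8, nearest 8.27) and highest for Brca1 (8.7, nearest 8.47). For Mcm3, E18.5 control 1 was lowest of its group (8.9, nearest 9.11), and so was E16.5 control 1 (11.04, nearest 11.17).

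The GR ablation effect differed between the stages by limma's interaction test in 22 genes, with adjusted p from 0.00123 to 0.0494. The E18.5 difference exceeded the E16.5 difference on the log2 scale by 0.7 (Cdt1), 0.76 (Mcm2), 0.98 (Mcm3), 0.77 (Mcm4), 1.05 (Mcm5), 0.74 (Mcm6) and 0.85 (Mcm7) in licensing genes. In helicase activation it did so by 1.49 (Mcm10) and 1.2 (Gins1). For polymerases and primase the values were 1.58 (Pola1), 0.64 (Pola2) and 0.91 (Prim1). Clamp and lagging strand genes had 0.92 (Rfc3), 0.89 (Rfc5), 0.74 (Fen1), 0.87 (Lig1) and 0.78 (Rpa2). The remaining 5 values were 0.8 (Rrm1), 0.77 (Dut), 1.43 (Chaf1b), 0.7 (Ccne2) and 1.31 (Brca1).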

How the results depend on the processing

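No alternative changed the direction of a called difference. The E16.5 count of replication genes called was 0 under every alternative run (0 or 1 with an unadjusted p under 0.05, limma). The fall between the stages was called in 40 genes in each genotype in nearly all settings; with no filter it was 41 in controls, and with a floor of log2 5 it was 39 in each genotype. The E18.5 count of 38 was 34 to 39 in all settings but the male embryos alone (35 when the E18.5 arrays were fitted by themselves and at an adjusted p under 0.01, 34 with a 1.5-fold minimum), where it was 0 of 40 (6 over all genes) with 5 arrays. Leaving out 1 array gave 35 to 38 at E18.5, 0 at E16.5 and 40 for the fall in each genotype.

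The interaction count of 22 was the one that depended on the processing. It was 14 with no filter, 37 with array weights, 5 with embryo sex as a covariate, 34 without E18.5 controls 3 and 4 and 1 at an adjusted p under 0.01, and leaving out 1 array gave 10 to 35. The count over all genes called above 0 moved too, from 292 to 217, 1119, 157 and 655 in the first 4 of these settings. The causes were not tested.

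Animals with the same number were not treated as paired, because the labels do not say that they are. The deviations of same-numbered animals correlated with a median r of 0.12 over 30 pairs of animals (-0.43 to 0.60, with 15 of 30 over 0.1). Other pairs had a median of -0.04, with 34 of 120 over 0.1. Between the genotypes at E16.5, r was 0.59, 0.17, -0.10, 0.33 and 0.60 for numbers 1 to 5. Whether same-numbered animals shared a litter was not tested. With the replicate block the counts were 0 at E16.5, 38 at E18.5, 40 for each fall and 23 for the interaction. Signal over background limits Orc1, Mcm10, Cdc45, Exo1 and Eme1, which were dim in some E18.5 lungs.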
